A study of Mus musculus with 56 samples.

Results

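The cytosolic ribosomal protein genes were taken as the autosomal protein-coding genes of the mm10 annotation named Rpl or Rps followed by a digit, together with Rpsa, Rplp0, Rplp1 and Rplp2, leaving out the Rps6k kinases. Of 92 such symbols, 4 lie on the X chromosome (Rpl10, Rpl36a, Rpl39 and Rps4x) and were not used, which left 88 members. A gene's locus was taken as every peak with its centre no more than 10 kb from the transcription start, with their counts summed, and 87 members had such a peak, of 18691 protein-coding genes in all. Rpl10l had none. By their symbols the members comprise 43 genes of the large subunit, 30 of the small subunit, 7 like genes such as Rpl3l and Rps27l, and 7 processed copies, which lie elsewhere in the genome and carry a parent's name. Rps19bp1 matched the rule by its symbol alone: it encodes a binding partner of Rps19 and no ribosomal protein. Counts and medians below refer to the 73 subunit genes unless stated.

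The ribosome translates mRNA, with a small subunit that reads the code and a large subunit that joins amino acids, and each ribosomal protein is made from a single functional gene in mammals beside many processed copies. These genes are transcribed strongly in dividing cells, from promoters that usually lack a TATA box, hold sites for ETS factors, YY1 and SP1, and start transcription at a C in a run of pyrimidines. That start, the terminal oligopyrimidine (TOP) motif, places their translation under mTOR and Larp1, and loss of 1 copy of several of them causes Diamond-Blackfan anaemia in people. Tet2 oxidises methylated cytosine in DNA and is often mutated in clonal haematopoiesis.

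The assay was ATAC-seq on bulk cells, where a transposase tags accessible DNA, in 56 libraries of 1000 cells from 28 clones of mouse granulocyte-monocyte progenitors (GMPs). The cells were immortalised with Hoxb8 fused to an oestrogen receptor domain and kept in 0.5 µM beta-estradiol. They had a Tet2 fl/fl background, so that controls carry the floxed alleles too. The paper's results describe the 28 clones as derived from 1 mouse, while its reporting summary names lines from mice of both sexes. No label gives the animal of a clone. Each clone grew from 1 cell and was split into a Tet2 knockout (KO) line, transduced with an integrase-deficient lentivirus encoding Cre, and a control line given GFP in the same way, both at a multiplicity of 200. The 4 groups were 4 GM-CSF Tet2 KO lines, their 4 GM-CSF control sisters (clones 19 to 22, 10 ng/ml GM-CSF), 24 SCF Tet2 KO lines and their 24 SCF control sisters (about 100 ng/ml stem cell factor). No clone was grown in both cytokines, so cytokine and clone cannot be told apart. The relative share of counts on the X chromosome differed by clone number. It was 0.96 to 1.09 in lines of SCF clones 1 to 18 and 0.74 to 0.91 in those of SCF clones 23 to 29. In GM-CSF lines it was 0.71 to 0.84, so the comparison by cytokine is not balanced for this share. The cause of the difference was not tested. Fits by cytokine were repeated with SCF clones 23 to 29 alone. A clone is 1 replicate, so spreads and tests measure differences between clones and not between animals. What is seen holds for immortalised clones in culture.

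Totals per library ranged from 39379 to 1079233 counts, and the least deep were KO clones 19 and 20 in GM-CSF. Of 564 pairs of libraries compared within groups, 3 did not differ beyond the sampling noise by a chi-square test over loci (KO clones 13 and 16 in SCF, and clones 19 and 20 in both GM-CSF groups). They carry different clone labels and were kept apart, and the fits by cytokine were repeated with 19 and 20 as 1 library. The fits between KO and control were not repeated in this way, so they count such lines as separate clones. Titles of clones 20 to 22 name SCF, but their treatment label is GM-CSF, which was used. All 10 GMP marker genes had peaks, and their summed level was 533 to 709 CPM (counts in peaks scaled to 1000000 per library) in GM-CSF KO lines and 567 to 681 CPM in GM-CSF controls, against 631 to 1081 CPM in SCF KO lines and 687 to 979 CPM in SCF controls. The 5 mature neutrophil markers summed to 122 to 203 CPM in GM-CSF KO lines and 95.7 to 175 CPM in GM-CSF controls, against 54.8 to 122 CPM in SCF KO lines and 66.1 to 112 CPM in SCF controls. No marker of the erythroid, lymphoid or stromal lists was at 0 in any group. The Tet2 locus held 32.9 ± 9.34 CPM in SCF KO lines and 31.1 ± 11.5 CPM in SCF controls (SD, n = 24), but accessibility around its start does not test the deletion.

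Ribosomal protein genes lay in open chromatin in every group. Their loci averaged between 24.8 CPM, at Rpl37a, and 258 CPM, at Rpl13a, in SCF controls, with a median of 70.1 CPM, against 30.8 CPM over all loci with a peak and 58.2 CPM over the loci that were tested. The open DNA was mainly at the start: a median of 64.5% of a locus' counts fell within 1 kb, the strongest peak was the promoter peak (the strongest within 1 kb of any annotated start of the gene) at 59 of 73 genes, and 55 of the promoter peaks were centred within 100 bases of such a start. A median of 9 peaks made up a locus. At 58 of the 73 genes at least 1 peak also lay within 10 kb of another gene's start, so neighbouring genes share signal, and 28 of the genes host a small nucleolar RNA.

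The highest locus was that of Rpl13a, a large-subunit protein that also acts in the interferon response, on chromosome 7. It held 254 ± 41.6 CPM in SCF KO lines and 258 ± 37.3 CPM in SCF controls (SD, n = 24). Among the next was the like gene Rpl3l, a paralog of Rpl3 used in striated muscle, with 187 ± 30.4 CPM in KO lines and 187 ± 24.5 CPM in controls. Only 0.8% of its counts were within 1 kb of its start, its strongest peak was at position -7819 relative to the start, and it shares peaks with Rps2, so this level is no sign of an open Rpl3l promoter. Rps19bp1 (181 ± 26.4 CPM in SCF controls), Rpl18 (175 ± 25.1), Rpl7a (161 ± 23.8) and the stalk gene Rplp2 (159 ± 23.8) followed. From Rpl18 down to Rplp2, neighbours in this order differed by less than their SD over clones.

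**Figure D1:**
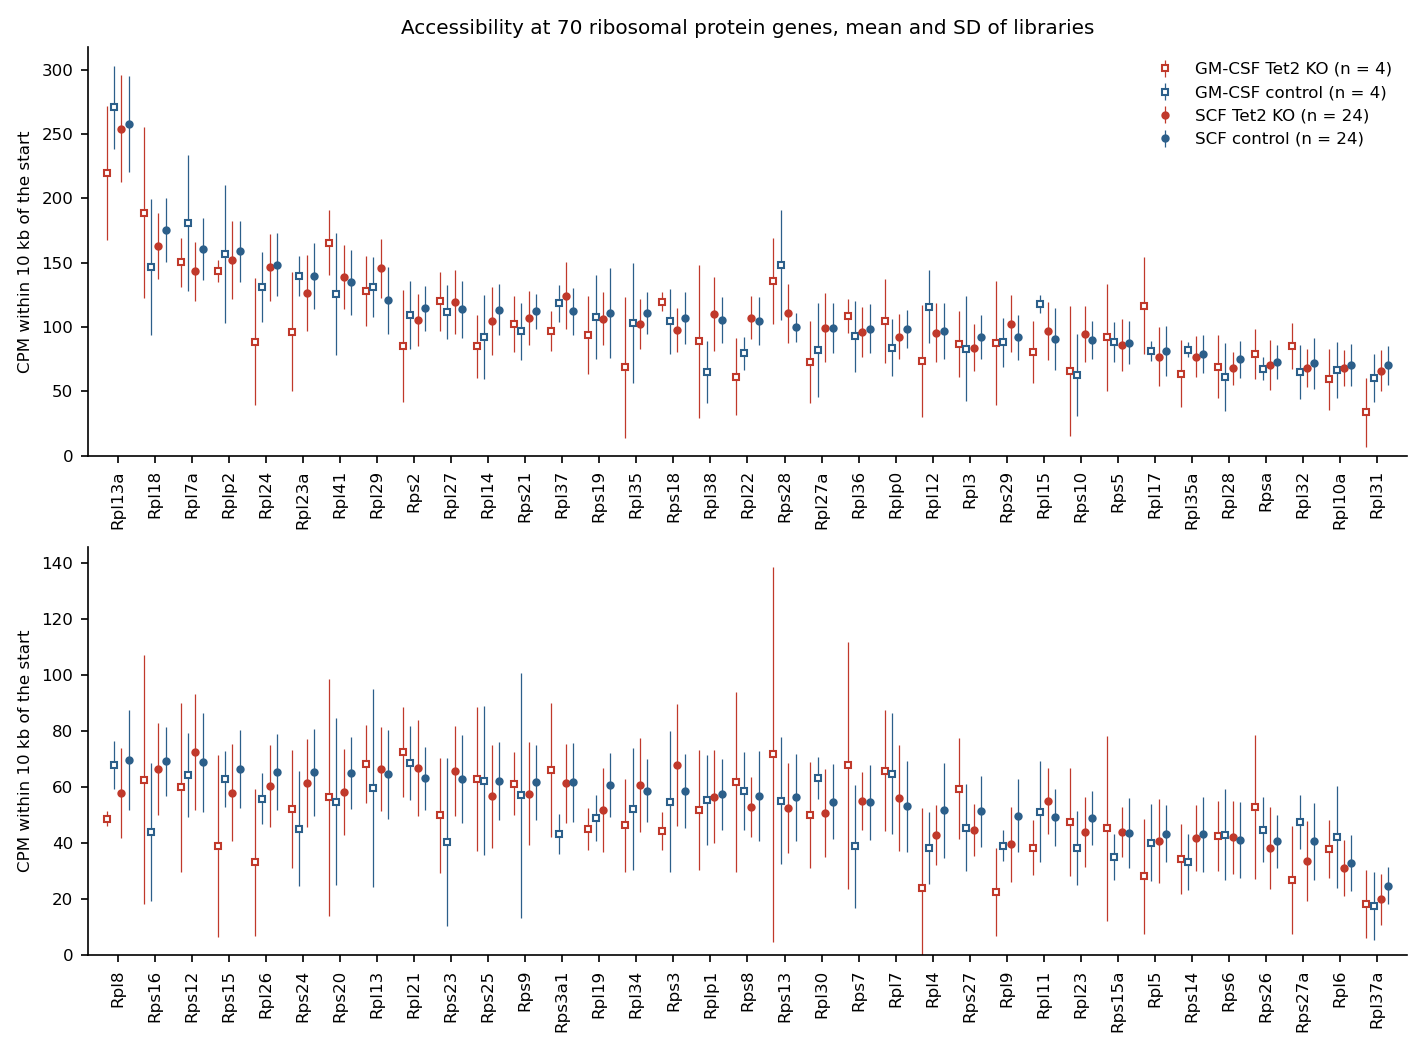
Accessibility at 70 of the 73 subunit genes, in CPM within 10 kb of the start, ordered by the SCF control mean; squares are GM-CSF lines and circles SCF lines, Tet2 KO in red and control in blue, with bars of 1 SD over libraries. SCF KO and control means lie close together from Rpl13a (254 and 258 CPM) to Rpl37a (19.9 and 24.8 CPM), and many bars of the 4 GM-CSF lines are wider than those of the 24 SCF lines.

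The lowest members were processed copies and the paralog Rpl39l. Rpl36a-ps1, Rpl36-ps4, Rpl39l, Rps12-ps3 and Rpl9-ps6 averaged 0.67, 1.42, 1.9, 2.8 and 4.48 CPM in SCF controls, and with Rpl10-ps3 (5.18 CPM) and Rps27rt (7.8 CPM) they did not pass the filter on low counts in any comparison. Rpl39l, the testis paralog of Rpl39, thus had almost no open DNA in these cells. Rpl10l had no peak, and the level around Rpl3l was not at its start, as given above. The paralogs Rpl36al, Rps27l, Rpl7l1 and Rpl22l1 held between 53.0% and 97.6% of their counts within 1 kb of the start: Rpl36al had 81.2 ± 15.0 CPM in SCF controls, Rps27l, a target of p53, 66.5 ± 14.8 CPM beside 51.4 ± 12.6 CPM at Rps27, Rpl7l1 62.2 ± 17.1 CPM beside 53.2 ± 16.2 CPM at Rpl7, and Rpl22l1 47.6 ± 13.6 CPM beside 105 ± 18.5 CPM at Rpl22. These are accessibility levels of whole loci and say nothing of transcript levels.

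At 7 of the 73 genes the promoter peak lay outside the 1 kb window, because a window was set around the outermost annotated start. At Rps10, Rps2, Rpl17, Rpl18, Rps24, Rpl3 and Rps14 that peak was 1379, 1885, 1944, 2577, 3555, 8462 and 27395 bases downstream of the outermost start. Rps2 and Rpl3 thus had 1.5% and 12.6% of their counts within 1 kb, although their promoter peaks, 62 and 0 bases from another annotated start, held 62.1% and 54.5% of the locus. The Rps14 promoter peak was outside the 10 kb locus as well, and 11 of the 12 peaks in that locus are shared with Ndst1, a heparan sulfate enzyme, so locus values of Rps14 are not those of its promoter. Of these 7 genes, 1 (Rpl18) was tested in the 1 kb window between KO and control in SCF. They were picked after their values were seen. Reads from a gene with near-identical processed copies can align in several places, and the sources used here do not say how such reads were treated.

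By an approximate estimate, clones differed little beyond counting error. The SD of log2 CPM among the 24 SCF controls exceeded the counting SD by a median of 0.06 over the subunit genes, taken as the root of the difference of their squares. The counting SD used here is somewhat too large and negative differences were set to 0, so a small excess can be missed. The excess was largest at Rpl32, Rps23, Rps12, Rps14 and Rps19, with 0.43, 0.38, 0.30, 0.29 and 0.29. Rps19 is an anaemia gene, and the Rps14 value is that of the locus shared with Ndst1. Rps19 reached 244 CPM in 1 SCF control line with a median of 106 CPM, and Rpl32 was 9.77 CPM at its lowest with a median of 73.1 CPM. The Rpl32 low was in clone 4, the least deep SCF control with 102302 counts, so it rests on very few counts.

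The first comparison was between Tet2 KO and control sister lines in SCF, paired by clone. Few ribosomal protein loci were called, and their changes were small: Rpl9, Rpl7a and Rpl19 fell and Rpl29 rose, by at most 0.36 on the log2 scale. These 4 were of 79 members tested with edgeR at an adjusted p under 0.05. Among all 10408 loci tested, 483 rose and 156 fell, that is 6.14% were called, 4.64% higher and 1.5% lower. Beside these shares, 1 of 79 higher and 3 of 79 lower are too few to set the members apart. A locus that was not called is not shown to be unchanged. In bulk libraries, fewer cells with an open site and less access per cell cannot be told apart.

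Rpl9, of the large subunit near the factor-binding site, had 22.0 CPM at its lowest, a median of 40.4 and 72.1 CPM at its highest in SCF KO lines, against 28.0, 51.1 and 78.0 CPM in SCF controls. The groups overlapped widely, and the KO line was lower in 16 of 24 clones. The log2 fold change was -0.36 ± 0.10 (SE, adjusted p = 0.0164). Its promoter peak, centred 42 bases upstream and shared with Lias (lipoic acid synthase), held 88.7% of the locus and gave -0.36 ± 0.11 on its own (adjusted p = 0.021, over the limit of 0.01 used for single peaks). With the promoter share of each library as a covariate the adjusted p was 0.0598, and within clones 1 to 18 or 23 to 29 alone it was 0.117 and 0.465.

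Rpl19, which reaches across to the small subunit, had a lowest, median and highest value of 27.4, 50.9 and 81.5 CPM in KO lines, against 39.1, 60.1 and 85.2 CPM in controls. It was lower in the KO line of 18 of 24 clones, with a log2 fold change of -0.29 ± 0.09 (SE, adjusted p = 0.0323). The promoter peak, 82 bases into the gene and 49.8% of the locus, changed by -0.35 ± 0.13 (adjusted p = 0.081). Leaving out clone 10, 12, 14, 17, 18, 25, 26 or 28 lifted the adjusted p of the locus over 0.05, to 0.088 at most, and with the promoter share as a covariate it was 0.26.

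Rpl7a, an outer protein of the large subunit, had a lowest, median and highest value of 100.0, 148 and 176 CPM in KO lines, against 88.0, 164 and 198 CPM in controls, and was lower in 19 of 24 clones. Its log2 fold change was -0.21 ± 0.06 (SE, adjusted p = 0.021). Most of the difference lay away from its own start: a peak at position -7830 relative to the start, shared with Med22 and Surf6, fell by 0.39 on the log2 scale (45.3 CPM in KO lines, 56.2 CPM in controls, adjusted p = 0.0040), while the promoter peak gave -0.17 ± 0.09 (adjusted p = 0.284). Without clone 12, or without clone 26, Rpl7a was no longer called, with an adjusted p of 0.074 at most.

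Rpl29 was the 1 member that rose. It had a lowest, median and highest value of 106, 146 and 184 CPM in KO lines, against 74.8, 125 and 163 CPM in controls, was higher in 19 of 24 clones, and changed by 0.22 ± 0.06 on the log2 scale (SE, adjusted p = 0.019). Here too the change was not at the gene's start. A peak 8925 bases downstream, shared with Acy1 (aminoacylase), Abhd14a and Abhd14b, held 53.9% of the locus and rose to 82.1 CPM in KO lines, against 61.7 CPM in controls (0.33 ± 0.08, adjusted p = 0.0037), whereas the Rpl29 promoter peak was 40.8 CPM in KO lines and 40.3 CPM in controls, -0.11 ± 0.10 after scaling. Within 1 kb of the start the sign of Rpl29 turned, to -0.10, and with an offset for GC content the locus missed the threshold (adjusted p = 0.0923), as with upper-quartile scaling (adjusted p = 0.0672).

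**Figure D2:**
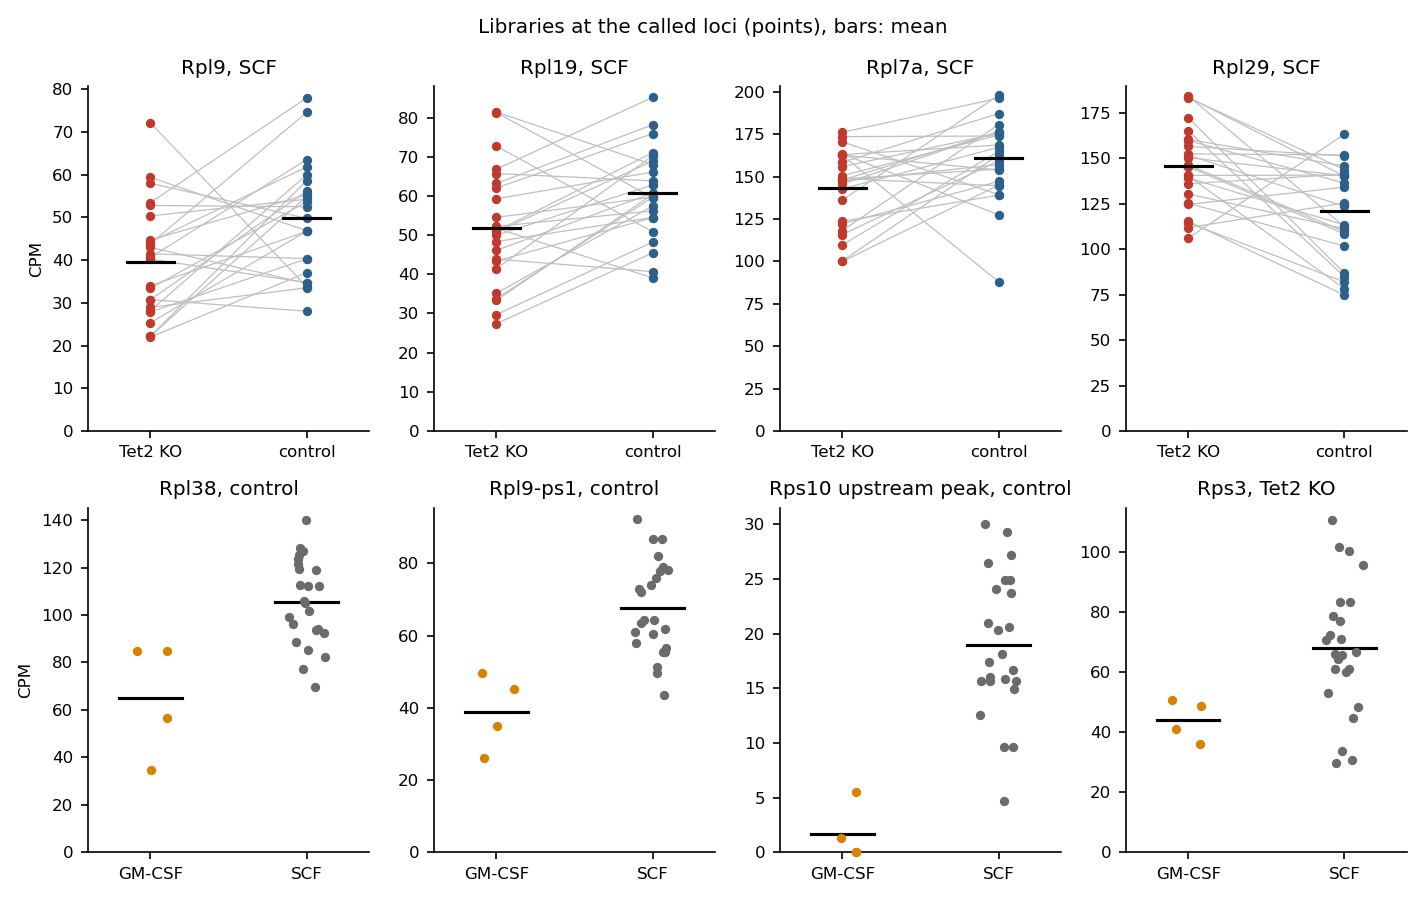
CPM in each library at loci that were called; upper row, Tet2 KO left of control in SCF clones, with grey lines joining sister lines; lower row, GM-CSF left of SCF in control lines (Rpl38, Rpl9-ps1 and 1 peak upstream of Rps10) and in Tet2 KO lines (Rps3). Black bars are means; the points of the groups overlap at every locus shown, and the Rps10 peak is lowest, at 0 CPM in 2 of the 4 GM-CSF control lines.

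The promoters of 5 members called in SCF clones or in the comparison of cytokines, and of Rps27, whose promoter window came next to the threshold, are printed to show how unlike their sequences are. Each run is 180 bases, 5′ to 3′ on the coding strand, ending 50 bases into the RefSeq transcript (GRCm38.p6), in lower case. Capitals mark matches to the ETS (CCGGAAG), YY1 (AANATGGC), SP1 (GGGCGG), E-box (CACGTG), CRE (TGACGTCA), NRF1, CCAAT and TATAAA motifs on either strand, and runs of a C and at least 4 more pyrimidines that cover the start or come within 3 bases of it. The intervals are chr5:65391382-65391561 (Rpl9, minus strand), chr11:98026580-98026759 (Rpl19, plus), chr2:26910677-26910856 (Rpl7a, plus), chr3:90213599-90213778 (Rps27, minus), chr11:114668450-114668629 (Rpl38, plus) and chr7:99483660-99483839 (Rps3, minus).
Rpl9: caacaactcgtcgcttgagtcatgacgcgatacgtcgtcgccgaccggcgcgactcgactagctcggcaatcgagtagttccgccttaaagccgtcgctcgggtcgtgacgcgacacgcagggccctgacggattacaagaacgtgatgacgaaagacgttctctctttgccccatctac
Rpl19: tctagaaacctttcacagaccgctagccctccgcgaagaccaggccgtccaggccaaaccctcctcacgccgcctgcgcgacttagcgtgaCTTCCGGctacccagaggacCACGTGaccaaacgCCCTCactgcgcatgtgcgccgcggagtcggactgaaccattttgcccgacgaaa
Rpl7a: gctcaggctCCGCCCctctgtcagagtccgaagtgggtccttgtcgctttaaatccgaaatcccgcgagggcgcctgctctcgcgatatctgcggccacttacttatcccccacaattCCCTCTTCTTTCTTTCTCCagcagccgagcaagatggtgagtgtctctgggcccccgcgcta
Rps27: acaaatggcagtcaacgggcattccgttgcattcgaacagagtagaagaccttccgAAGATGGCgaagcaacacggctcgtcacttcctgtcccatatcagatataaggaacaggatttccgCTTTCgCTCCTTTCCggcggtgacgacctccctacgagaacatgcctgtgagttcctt
Rpl38: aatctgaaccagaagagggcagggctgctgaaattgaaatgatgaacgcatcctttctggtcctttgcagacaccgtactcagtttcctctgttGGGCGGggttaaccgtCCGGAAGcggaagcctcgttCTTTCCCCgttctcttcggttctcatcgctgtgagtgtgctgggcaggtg
Rps3: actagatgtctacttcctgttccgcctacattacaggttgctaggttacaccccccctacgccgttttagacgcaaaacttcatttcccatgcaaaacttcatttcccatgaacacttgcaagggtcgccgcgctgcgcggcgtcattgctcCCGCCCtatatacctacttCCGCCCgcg
The Rpl9 window holds no match and no pyrimidine run at the start. Rpl19 holds an ETS match, an E-box and a pyrimidine run, and Rpl38 an SP1 and an ETS match followed by a pyrimidine run that begins at its first base, a TOP start. Rps27 has a YY1 match and pyrimidine runs but no ETS or SP1 match, Rpl7a has an SP1 match and a pyrimidine run across its start, and Rps3 has SP1 matches alone.

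Across the group the ETS, YY1 and SP1 letters were more frequent than in promoters at large, as they were in promoters of mitochondrial ribosome genes. Of the members, 62 matched the promoter table, 53 of them subunit genes with 63 promoters of 300 bases (250 before and 50 after the start), against 32851 promoters in all. The ETS motif was in 38.1% of the ribosomal protein promoters and in 8.86% of all, the YY1 motif in 22.2% and 6.05%, the SP1 motif in 60.3% and 35.7%, the CRE in 7.94% and 1.79%, the E-box in 12.7% and 7.15%, and the NRF1 motif in 7.94% and 4.60%. TATAAA was in 6.35% and 13.6%, and CCAAT in 30.2% and 37.4%. A TOP start at the annotated base was found in 20.6% of the ribosomal protein promoters and in 2.51% of all, and the median GC content was 59.0% and 52.7%. In 75 promoters of mitochondrial ribosome genes the ETS motif was in 34.7%, the YY1 motif in 28.0%, the SP1 motif in 52.0%, the NRF1 motif in 17.3% and a TOP start in 0, with a median GC content of 58.7%. SP1 letters can overlap those of other GC-rich motifs, and a match is a string of letters, not a bound site.

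Within 1 kb of the start most ribosomal protein genes had negative values in Tet2 KO lines, of which few passed the test. Of 62 subunit genes tested in this window, 50 had a negative log2 fold change and 12 a positive one, and their median was -0.13, against -0.01 over all 6893 loci tested, of which 53.1% were negative. Single calls stayed few: 0 rose and 2 fell (Rpl9 and Rpl19, -0.36 ± 0.11 and -0.41 ± 0.13, adjusted p = 0.0197 and 0.0307), where 6.12% of all loci were called, 4.66% higher and 1.47% lower. By edgeR 11 of the 62 had an unadjusted p under 0.05. In the 10 kb window 55 of 72 were negative, with a median of -0.07 against -0.01 for all loci.

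The subunits had like medians. In the 1 kb window 27 of 36 large-subunit genes were negative (median -0.13) and 2 were called, and 23 of 26 small-subunit genes were negative (median -0.13) and 0 were called. The lowest values after Rpl19 and Rpl9 were at Rps27, a zinc-finger protein of the small subunit (-0.35 ± 0.12, adjusted p = 0.0536), Rpl36 (-0.34 ± 0.13) and Rpl5 (-0.27 ± 0.11), whose protein binds Mdm2 together with Rpl11. The highest were at Rps3 (0.16 ± 0.10), a protein of the mRNA entry channel, Rps29 (0.15 ± 0.08), Rpl37 (0.13 ± 0.07), Rpl13a (0.11 ± 0.07) and Rpl11 (0.11 ± 0.12), none of which passed. Rpl36, Rps29 and Rpl37 were named after their values were seen.

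**Figure D3:**
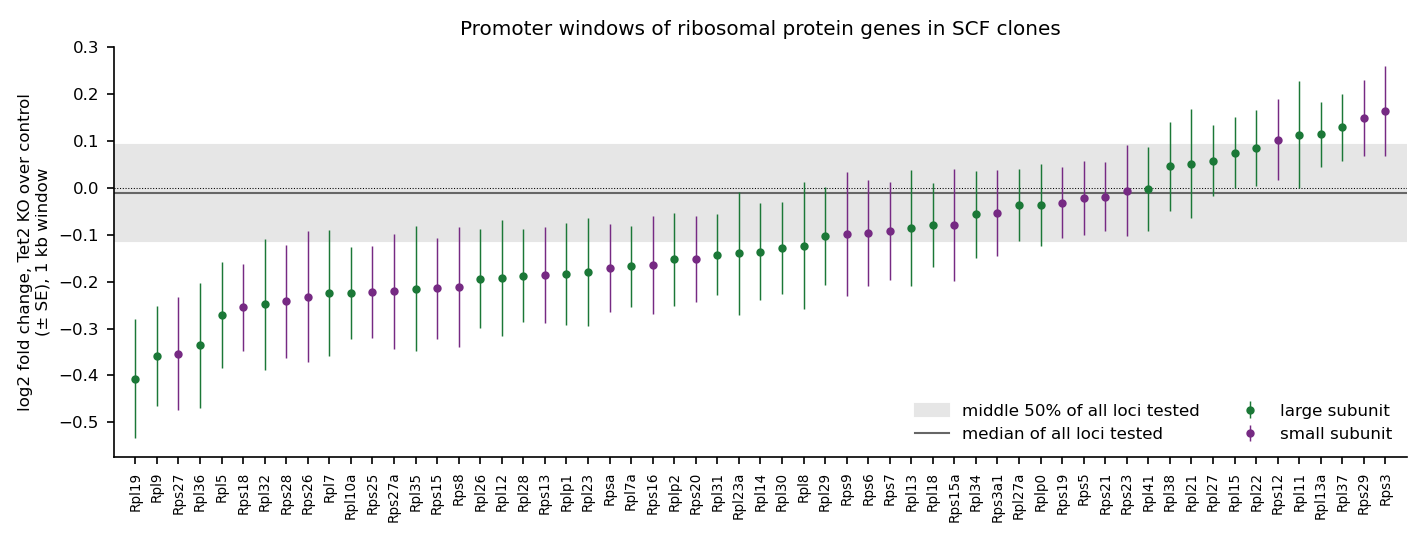
Log2 fold change, Tet2 KO over control in 24 SCF clone pairs, with SE, at the promoter windows of 59 of the 62 subunit genes tested, sorted by value; large-subunit genes in green, small-subunit genes in purple. The grey band holds the middle 50% of all 6893 loci tested and the grey line their median (-0.01); 48 of the 59 points are below 0.

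Shares of each library's counts need no model. The windows within 1 kb of the 73 gene starts held 0.728 ± 0.0334% of the promoter-peak total in SCF KO lines, against 0.7705 ± 0.0293% in SCF controls (SD, n = 24). The KO line was lower in 22 of 24 clones, with a mean difference of -0.0425 percentage points (SD 0.0338), in 16 of 17 clones numbered 1 to 18 and in 6 of 7 numbered 23 to 29. Relative to all counts in place of promoter counts the windows held 0.327 ± 0.0469% in KO lines, against 0.332 ± 0.0331% in controls, lower in 10 of 24 clones. Promoter peaks as a whole made up 44.8 ± 5.26% of all KO counts and 43.1 ± 4.11% of all control counts, higher in 16 of 24 clones. A lower share of promoter counts thus stood beside a higher share of counts in promoters.

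**Figure D4:**
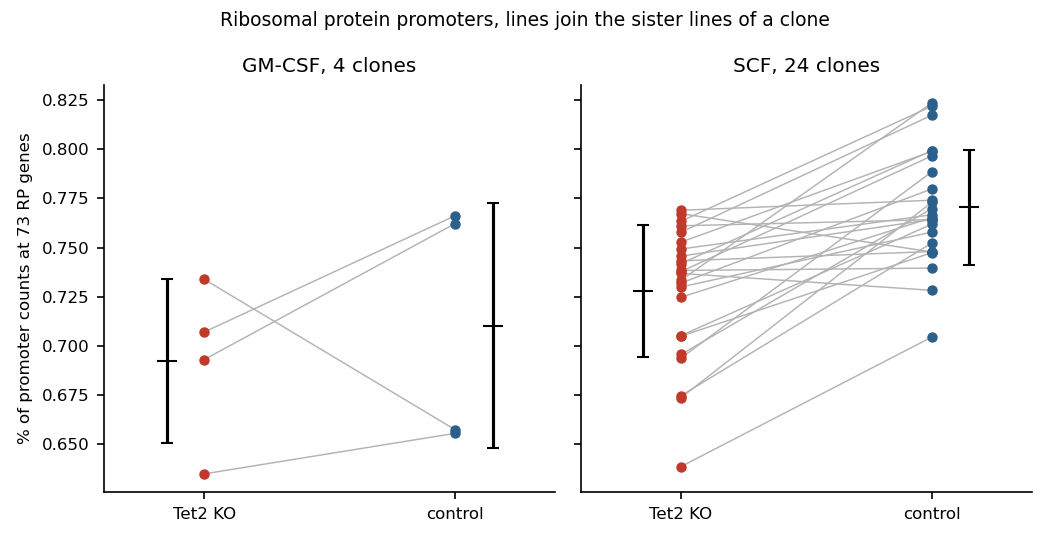
Share of a library's promoter counts, in %, at the promoter windows of the 73 subunit genes, Tet2 KO left of control, with lines joining sister lines and bars of mean and SD; the axis does not start at 0. In SCF the KO line is lower in 22 of 24 clones, and in GM-CSF in 3 of 4.

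Level of accessibility moved with the KO change at all genes. With the 6893 loci divided into 4 equal bins by their mean CPM, the median change in KO lines of all loci was -0.10 in the lowest bin, then -0.06, -0.01 and 0.11 in the highest. Ribosomal protein genes had medians of -0.22 (n = 16), -0.17 (n = 20), -0.05 (n = 14) and 0.07 (n = 12) in the same bins, and 13, 18, 9 and 9 of them lay under the median of their bin. The part of accessibility level in the lower medians beyond these bins was not tested. In the 10 kb window 3, 11, 19 and 24 of 3, 17, 23 and 29 genes lay under the median of their bin.

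**Figure D5:**
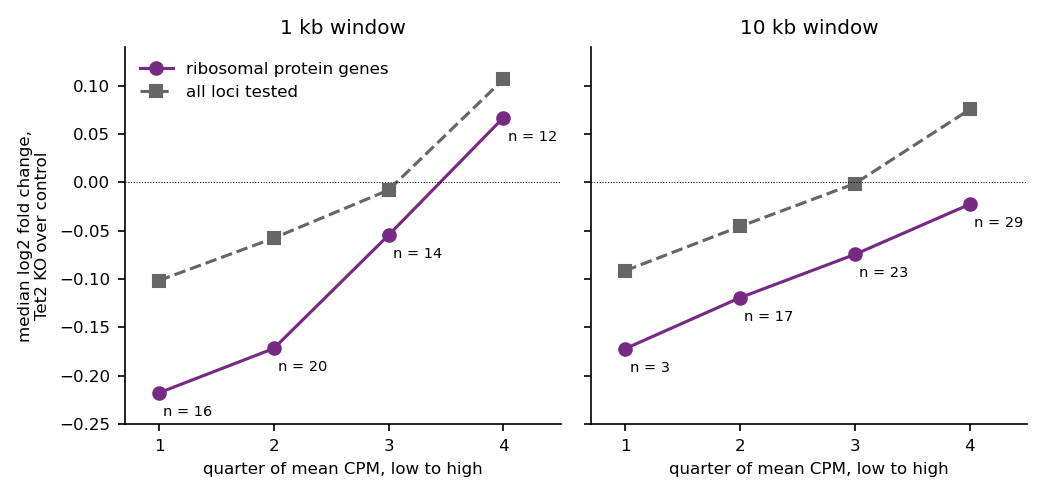
Median log2 fold change, Tet2 KO over control in SCF clones, by bin of mean CPM, for ribosomal protein genes (purple, n beside each point) and all loci tested (grey), in the 1 kb window (left) and the 10 kb window (right). Both lines climb with accessibility, and the ribosomal protein genes lie under all loci in each bin (-0.22 and -0.10 in the lowest bin of the 1 kb window, 0.07 and 0.11 in the highest).

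The difference of the medians was nearly the same under other settings of the 1 kb window. The median of the ribosomal protein genes less that of all loci was -0.12. It was -0.10 with an offset for GC content and -0.10 with the promoter share as a covariate. In clones 1 to 18 alone it was -0.10, and in clones 23 to 29 alone -0.10. Upper-quartile scaling and library totals alone gave -0.12. A change of scaling shifts all loci nearly alike, so these scalings could not move the difference and do not test it. Counts of negative genes moved with the scaling: 51 of 62 with upper-quartile scaling, where the median of all loci was -0.06, and 41 of 62 with library totals, where it was 0.06. The relative median was -0.06 in the 10 kb window and -0.004 in a 50 kb window. Scaling decided the balance of single calls over all 10 kb loci: 331 rose and 257 fell with upper-quartile scaling, and 428 rose and 64 fell with library totals, against 483 and 156 in the main fit.

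Promoter motifs were set beside the change in KO lines. Of the subunit genes tested in the 1 kb window and present in the promoter table, the 27 with an ETS or YY1 match had a median change of -0.09, with 21 negative, and the 18 without had -0.15, with 15 negative. Over all loci the median was -0.03 with such a match (n = 1862) and 0.00 without (n = 3697). Genes with a pyrimidine run beginning within 3 bases of the start had a median of -0.10 (17 of 20 negative) and those without -0.16 (19 of 25 negative). With an SP1 match the members' median was -0.08 (n = 29) and without -0.20 (n = 16), where all loci gave 0.00 and -0.05. With CCAAT it was -0.08 (n = 14) and without -0.15 (n = 31), where all loci gave 0.01 and -0.02, and with an NRF1 match it was -0.19 (n = 4) and without -0.09 (n = 41), where all loci gave -0.045 and -0.003. Members and all loci thus had the same order for these 3 motifs and the opposite order for ETS or YY1. It was opposite for the rest as well. The CRE gave members -0.08 with a match (n = 5) and -0.14 without, and all loci -0.04 and -0.01. TATAAA gave members -0.04 (n = 3) and -0.12, and all loci -0.02 and -0.01. The E-box gave members -0.096 (n = 6) and -0.099, and all loci -0.03 and -0.01. The pyrimidine run gave all loci -0.0099 with and -0.0090 without. These medians are descriptions, and the difference between the classes was not tested.

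Other genes of the ribosome and of translation were set beside the members, from lists compiled for this purpose. Fau and Rack1, which encode ribosomal components under other names, gave -0.14 ± 0.09 and -0.25 ± 0.12 in the 1 kb window, and neither was called (adjusted p = 0.384 and 0.22). Of 50 ribosome biogenesis genes tested, 35 were negative with a median of -0.08, and 1 rose, Ncl (nucleolin, 0.24 ± 0.07, adjusted p = 0.0144). Of 26 translation factors 14 were negative, with a median of -0.03, and Tpt1 rose (0.30 ± 0.07, adjusted p = 0.00088). Of 45 mitochondrial ribosome genes 26 were negative, with a median of -0.02, 3 rose and 1 fell, although their windows took a lower share of promoter counts in the KO line of 19 of 24 clones. Among 20 genes that act on ribosomal protein genes, Yy1 and Sp1 rose (0.28 ± 0.07 and 0.29 ± 0.06, adjusted p = 0.0029 and 0.00067) and 0 fell. Over all 6893 loci of this window 6.12% were called, 4.66% higher and 1.47% lower. Beside these shares, the calls in each list are too few to set the lists apart.

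Single promoter peaks, tested at a stricter limit, were not called. Of 71 members' promoter peaks tested by edgeR, 0 were called at an adjusted p of 0.01, where 2.5% of 7871 peaks were (2.22% higher and 0.28% lower), while 15 had an unadjusted p under 0.05 and DESeq2 called 0. Their median change was -0.15, against -0.01 for all peaks. Among all 86 tested peaks of the subunit genes' loci, the peaks at Rpl7a and Rpl29 described above were called. Each of these lies within 1 kb of the start of a neighbouring coding gene. Also called was a peak 6817 bases downstream of Rps28 near Kank3 and Ndufa7, which held 68.2 CPM in KO lines and 52.7 CPM in controls (0.33 ± 0.09, adjusted p = 0.00771). Of the 82 tested peaks within 1 kb of a coding start 1 was higher and 1 lower, where 2.87% of 6337 such peaks were called.

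The members with a known role of their own were not called as loci in SCF KO lines, apart from those above. The stalk genes, whose proteins recruit translation factors, gave -0.08 ± 0.07 (Rplp0), -0.02 ± 0.09 (Rplp1) and -0.12 ± 0.06 (Rplp2). Rpsa, also known as the laminin receptor, gave -0.07 with an adjusted p of 0.67, and Rps6, the substrate of S6 kinase, -0.05 (adjusted p = 0.856). The anaemia genes Rps19, Rps24, Rps26, Rpl5 and Rpl11 lay between -0.16 (Rpl5) and 0.12 (Rpl11), with the lowest adjusted p at 0.413. Rps14, which is lost in the 5q deletion of people with myelodysplasia, gave -0.25 ± 0.10 at its promoter peak (adjusted p = 0.147) and -0.12 at the locus shared with Ndst1. Rpl22 and Rpl22l1, paralogs with separate roles in lymphoid development, gave 0.07 and 0.01. Rpl3 (-0.20, adjusted p = 0.0845), Rpl10a (-0.07), Rpl18 (-0.16, adjusted p = 0.0781), Rpl13a (-0.02) and Rps27a, a ubiquitin fusion (-0.17), were not called either. The 3 genes on chromosome 1, of which SCF clones 5, 13 and 16 hold more, were unremarkable: Rpl7 gave -0.03 and Rpl31 -0.08, and Rpl37a was too low to be tested.

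The second comparison was between GM-CSF and SCF, in control lines and in KO lines separately. Ribosomal protein loci as a group had medians close to 0: the median of 73 subunit genes was 0.01 in control lines (37 positive and 36 negative) and 0.00 in KO lines (36 and 36), against -0.01 and -0.02 for all loci. In the 1 kb window the medians were -0.10 in control lines (30 positive and 38 negative) and -0.06 in KO lines (29 and 37), against -0.01 and -0.04. Of 80 members tested in control lines 0 rose and 2 fell, where 12.4% of 12933 loci were called (5.77% higher and 6.68% lower), and of 79 tested in KO lines 0 rose and 1 fell, where 9.83% of 11378 loci were called (4.23% higher and 5.61% lower). The KO lines are sisters of the control lines, so these comparisons are not independent, and both rest on 4 clones in GM-CSF.

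The 10 kb locus of Rpl38, a gene that in mice shapes the axial skeleton, fell in GM-CSF control lines. It held 34.8, 56.7, 84.7 and 84.8 CPM in GM-CSF controls (clones 19 to 22), against a lowest, median and highest value of 69.5, 106 and 140 CPM in SCF controls. The groups overlapped in the 2 deeper clones, and the log2 fold change was -0.43 ± 0.15 (SE, adjusted p = 0.0381). Its promoter peak, 43.9% of the locus, was not called on its own (-0.30 ± 0.21, adjusted p = 0.344). Rpl38 was not called in the 1 kb window either. Of its 9 peaks 8 are shared with Ttyh2. The shared peak 6981 bases downstream, 30.1% of the locus, gave -0.22 ± 0.27 (adjusted p = 0.624). In KO lines Rpl38 held 122, 0, 117 and 116 CPM in GM-CSF, against a median of 114 CPM in SCF, a change of 0.05. Leaving out any of the 4 GM-CSF clones lost the call, with adjusted p from 0.066 to 0.131.

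Rpl9-ps1 lies among chemokine genes, and its locus is theirs: 45.8% of its counts were in a peak 5256 bases from its start that also belongs to Ccl3. The locus held 26.1, 45.3, 35.0 and 49.6 CPM in GM-CSF controls, against 43.4, 64.3 and 92.2 CPM (lowest, median and highest) in SCF controls. All 4 GM-CSF lines lay under the SCF median. It changed by -0.70 ± 0.18 (adjusted p = 0.0040) and the Ccl3 locus by -0.69 ± 0.19 (adjusted p = 0.00525), while without clone 21 the adjusted p of Rpl9-ps1 was 0.10. In KO lines the change of Rpl9-ps1 was -0.36 ± 0.21 (adjusted p = 0.321).

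Rps3 was the member that fell in GM-CSF KO lines. It held 48.9, 50.8, 36.3 and 41.1 CPM in GM-CSF KO lines, against a lowest, median and highest value of 30.0, 66.4 and 111 CPM in SCF KO lines. The GM-CSF values sat in the lower part of the SCF range, and the log2 fold change was -0.69 ± 0.24 (SE, adjusted p = 0.0488), lost without clone 20, 21 or 22 (adjusted p up to 0.38) and with clones 19 and 20 as 1 library (adjusted p = 0.0546). In control lines Rps3 held 34.8, 34.0, 64.4 and 86.1 CPM in GM-CSF, against a median of 57.4 CPM in SCF, a change of 0.28 ± 0.17 (adjusted p = 0.30). The difference of its KO effects between cytokines, -1.01 ± 0.29, had an adjusted p of 0.998.

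Narrower windows picked out individual elements that differed by cytokine. In control lines 1 of 68 subunit genes rose within 1 kb of the start and 3 fell, where 10.1% of 8937 loci were called (4.21% higher and 5.86% lower): Rpl15 rose by 0.45 ± 0.15 on the log2 scale (110 CPM in GM-CSF, 84.0 CPM in SCF; in KO lines its peak held 77.5 CPM in GM-CSF and 91.2 CPM in SCF), while Rps16 and Rps10 were among those that fell, by 0.81 and 2.54. Rps16 held 21.8 CPM in GM-CSF and 46.5 CPM in SCF. These genes were called in the narrow window and not as 10 kb loci. In KO lines 0 of 66 rose and 4 fell (Rplp2, Rps3 and Rps10 among them), where 8.17% of 7661 loci were called (2.83% higher and 5.34% lower). Rpl15 and Rps10 are anaemia genes in people.

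The Rps10 fall was at an upstream element and not at its promoter peak. A peak at position -856 relative to the annotated start held 0, 0, 5.52 and 1.30 CPM in GM-CSF controls, which is 4 counts in all, against 4.67, 17.8 and 30.0 CPM (lowest, median and highest) in SCF controls (-2.61 ± 0.53, adjusted p = 4.57e-05). GM-CSF KO lines held 0, 0, 2.13 and 0 CPM, 1 count in all, against 7.69, 19.9 and 43.4 CPM in SCF KO lines, without overlap. The promoter peak of Rps10, 50 bases from another annotated start and 1379 bases downstream of the outermost one, is its strongest peak and is not in the 1 kb window. It held 41.9 CPM in GM-CSF controls and 38.9 CPM in SCF controls, and was not called (0.44 ± 0.20, adjusted p = 0.0911). Both peaks also lie in the read-through gene RPS10-NUDT3 of the annotation.

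Few single peaks at these loci were called by cytokine. Of 108 tested peaks of the subunit genes, 4 were higher and 1 lower in GM-CSF control lines, where 14.7% of 13171 peaks were called (4.8% higher and 9.88% lower). That share differed by position. Of the 108 peaks 99 lay within 1 kb of a coding start, with 3 higher and 1 lower, where 7.07% of 8755 such peaks were called. Of the 9 farther peaks 1 was higher, where 29.8% of 4416 were called. Of the members' promoter peaks only that of Rpl15 was called (0.51 ± 0.16, adjusted p = 0.00984). The other gains were 5647 bases downstream of Rpl7a at the Surf1 and Surf2 genes (41.1 CPM in GM-CSF, 22.3 CPM in SCF, 1.02 ± 0.23, adjusted p = 0.00024), 5554 bases downstream of Rpl23a near Nek8 and Tlcd1 (63.7 and 42.3 CPM, adjusted p = 0.00173) and 6817 bases downstream of Rps28 (108 and 52.7 CPM, 0.89 ± 0.16, adjusted p = 3.36e-06). In KO lines, where single peaks were not tested, the Rpl7a and Rps28 peaks held 37.6 and 89.3 CPM in GM-CSF, against 21.1 and 68.2 CPM in SCF, and the Rpl23a peak 36.9 CPM in GM-CSF, against 42.1 CPM in SCF. The Rps28 peak was called higher both in KO lines in SCF and in control lines in GM-CSF, comparisons that share the SCF controls. GM-CSF lines also had lower GMP and higher neutrophil marker levels, as given above, and their part in these peaks was not tested.

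In GM-CSF clones no member was called between KO and control. Of 80 members tested by edgeR 0 were called, as of all 12733 loci (0%), with 5 members at an unadjusted p under 0.05, and DESeq2 called 0 as well. The median of the 73 subunit genes was -0.06 (25 positive and 48 negative), against -0.02 for all loci, and in the 1 kb window it was -0.14 (23 and 45) against -0.02, with 0 of 73 members called where 0.0116% of 8640 loci were (1 locus, higher). Their windows took 0.692 ± 0.0418% of promoter counts in KO lines, against 0.71 ± 0.0622% in controls (SD, n = 4), lower in 3 of 4 clones. Of the genes called in SCF, Rpl9 gave -0.26 ± 0.33, Rpl19 -0.11 ± 0.29, Rpl7a -0.37 ± 0.17 and Rpl29 0.11 ± 0.19. Their KO effects in GM-CSF less those in SCF came to 0.08 ± 0.35, 0.16 ± 0.31, -0.18 ± 0.18 and -0.12 ± 0.20, and 0 of 80 members passed this test, with 3 at an unadjusted p under 0.05. At 4 pairs such intervals do not exclude effects of the size seen in SCF.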

How the data were processed

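ATAC-seq peak counts of 56 libraries were used as deposited by the authors: whole-number counts in 297361 peaks of 301 bases on mm10, not normalised. The peak set came from single-cell ATAC-seq of the study and a public set, not from these libraries. Whether fragments or insertions were counted is not stated in the sources used here. The submitters' processing notes name Bowtie2, Picard and SAMtools without versions. Samples were grouped by genotype and treatment label, and 0 per-sample columns were left unused. Counts were summed per gene within 10 kb of the start, and in windows of 1 kb and 50 kb. CPM were counts over the library total. Differences were tested with edgeR 4.0.16 in R 4.3.3 (quasi-likelihood, TMM, a count minimum of 10, Benjamini-Hochberg over all loci at 0.05, or 0.01 for single peaks), and with DESeq2 1.42.0 as an alternative. KO and control were blocked by clone, since sister lines come from 1 clone: their deviations from the group means correlated with a median r of 0.0595 in SCF and 0.0513 in GM-CSF, against -0.0016 and -0.0123 for other pairs. No sequencing batch is labelled. The range of totals limits precision, and zero values in the 2 least deep lines rest on few reads. Scripts were tested on simulated counts with known changes at a small part of the loci. The spread of counts and of clones was set to fixed values there and not estimated from these data. The shares called thus do not give the power of the real comparisons. In the simulation of KO against control in SCF, 6.1%, 56.7% and 98.4% of log2 changes of 0.2, 0.4 and 0.8 were called. By cytokine in control lines these shares were 0%, 4.5% and 37.5%. Python 3.11.15 drew the figures.

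The members and lists were chosen with earlier results of these data known. Genes named were a fixed set with known roles, the 8 highest and 5 lowest, the 5 with the largest spread beyond counting error, and up to 12 called per comparison. Others were named after their values were seen. Alternatives were other scalings, filters, windows, unshared peaks, a promoter-share covariate, clone subsets and leaving out each clone. A few genes are not reported here by name; they remain in counts and medians.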

Additional observations from a re-analysis of the deposited data

Results flagged for a closer look

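In 9 of 80 groups of 4 GM-CSF lines, 1 line stood far from the other 3. Chance gives about 1 in 20 for independent values of equal spread. Depth differed between these lines and the groups share libraries, so the count cannot be set against that rate. Rpl10a and Rpl32 each had 34.0 CPM in the control line of clone 20, against 73.6 to 79.6 CPM and 71.8 to 78.3 CPM in the other control lines. Rpl7a had 102.0 CPM in that line, against 201 to 213 CPM in the others. The KO line of clone 20 had 0.0 CPM at Rpl37a, where the others had 22.8 to 25.6 CPM, and 0.0 CPM at Rpl38, where the others had 116.5 to 122 CPM. Rpl7 had 97.86 CPM in the KO line of clone 19, against 50.8 to 57.6 CPM. These 6 values rest on 0 to 9 counts in the least deep lines. In deeper lines or on more counts, Rpl3l had 215.4 CPM in the KO line of clone 21 (101 counts, others 171 to 178 CPM) and 165.4 CPM in the control line of clone 19 (19 counts, others 215 to 220 CPM), and Rpl5 had 60.73 CPM in the control line of clone 21 (33 counts, others 31.3 to 34.8 CPM).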

How the results depend on the processing

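Of 4 members called between KO and control in SCF, 2 were called with DESeq2, library totals, no filter, a 1 kb or 50 kb window or the promoter share as a covariate, 7 (all lower) with upper-quartile scaling, and 0 with unshared peaks or in clones 1 to 18 or 23 to 29 alone. Leaving out each clone gave 2 to 6, with 2 without clone 12 and 2 without clone 26. Without the replicate block, which pairs sister lines, 3 members were called in SCF (1 higher and 2 lower) and 0 in GM-CSF, and 0 promoter peaks. Of 2 members called by cytokine in control lines, 1 was called with DESeq2, library totals, unshared peaks or SCF clones 23 to 29, 4 in the 1 kb window and 13 in the 50 kb window, and 1 to 2 when each clone was left out. The 1 member called in KO lines became 0 with DESeq2, unshared peaks, shallow clones left out or clones 19 and 20 as 1 library, 2 with the covariate or SCF clones 23 to 29, 4 in the 1 kb window and 6 in the 50 kb window, and 0 to 1 when each clone was left out. At an adjusted p of 0.05, 1 promoter peak was called between KO and control in place of 0, and 4 by cytokine in place of 1, where DESeq2 called 0. Signs turned at Rpl29 in SCF KO lines in the 1 kb window (-0.103), and in the 50 kb window by cytokine at Rpl5 (0.3671), Rplp0 (0.3885) and Rpl9-ps1 (0.04329) in control lines and at Rplp0 (0.3662) in KO lines. Of other values for single members, 3628 kept their direction and side of the threshold, 58 lost and 13 gained a call. Leaving out each SCF clone, the GC offset and the repeats of other settings in the 1 kb window were chosen after seeing the data. The cause of these changes was not tested.

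The 2 least deep GM-CSF KO lines held 39379 and 40876 counts, the fewest of all libraries, and low values there have wide counting error. At 58 of 73 subunit genes peaks are shared with another gene, the treatment of reads that align to processed copies is unknown, and all lines are immortalised clones.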
